A study of Sus scrofa with 6 samples.

Results

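Axon guidance genes encode the ligands and receptors by which growing axons, migrating neural crest cells, sprouting vessels and tissue boundaries read their surroundings. They were followed here in RNA-seq libraries of whole pig embryos. The members were the rows of the deposited transcript table whose protein description held ephrin, semaphorin, plexin, netrin, neuropilin, slit homolog or roundabout. The search took 105 of 20523 rows. Of these, 8 were no guidance rows: 4 held a search word inside another word (3 nephrin rows and 1 complexin row), and 4 named other protein families (2 rows of NETO1, 1 of NETO2 and 1 of PLXDC1). The remaining 97 rows stood for 63 genes, because Ensembl had split 20 of the genes over several rows, and rows of the same gene are not independent. They fell into 8 rows of ephrin ligands, 17 of Eph receptors, 28 of semaphorins, 13 of plexins, 9 of neuropilins, 12 of netrins and their receptors, and 10 of Slits and Robos.

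The embryos were Large White pigs of 17.5 to 18 days post coitum, and 3 were sequenced in each of 2 groups. The WT embryos (called qq by the submitters) were wild type at VRTN. The QQ embryos were homozygous at both quantitative trait nucleotides (QTNs, sites tied to a measured trait) of VRTN, a gene linked to the number of thoracic vertebrae. Genotypes were read from extra-embryonic tissue, and the labels name no litter, dam or sex. The p-values therefore describe the variation among these 6 embryos and no wider set. Values are RPKM, reads scaled to the length of the transcript and the size of the library, unless another unit is named, and a mean ± SD is over 3 embryos. Fold changes come from counts scaled with TMM factors, which RPKM lacks, so a fold change near 0 can differ in sign from the RPKM means.

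Ephrins are ligands that stay on the cell surface. They bind Eph receptor tyrosine kinases on the neighbouring cell, signal in both cells, and usually push cells apart; they keep boundaries between somites and between segments of the hindbrain. Semaphorins, most of them repellents, act through plexins, and most of the secreted class 3 need neuropilins as co-receptors. Netrins attract through DCC and repel through UNC5 receptors, and Slits repel through Robo receptors at the midline of the nervous system. Several of these genes also pattern vessels: EFNB2 marks arteries and EPHB4 veins.

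Libraries held 12.2 M to 13.5 M uniquely mapped reads. VRTN itself held 0 reads in each WT library and 2, 0 and 1 in QQ replicates 1 to 3, too few to check the labels. WT replicate 3 stood apart on the first principal component of all tested rows (-61.7, against -9.13 to 29.99 for the remaining libraries; 57.7% of the variance). In a whole embryo, fewer cells of a type and less RNA per cell cannot be told apart. Markers were found by gene symbol, which not every row had, so a listed gene without a match may still be in the data. The summed level of neural crest markers (3 of the 7 listed were matched to a row) was 30.1 to 47.95 in WT and 50.7 to 54.3 in QQ embryos, lowest in WT replicate 3. In each of these genes, ETS1, TFAP2A and EDNRB, taken singly, the groups overlapped. ETS1 made up most of the sum, with 17.4 to 35.2 in WT and 33.4 to 39.6 in QQ embryos. TFAP2A was lowest in WT replicate 2. For endothelial markers (5 of 8) the summed level was 22.1 to 31.3 in WT and 28.6 to 33.4 in QQ embryos, again lowest in WT replicate 3. The endothelial receptor gene TIE1 had 0 reads in every WT library and 1, 0 and 2 in the QQ libraries, too few to compare. Of the 4 tested genes, KDR lay above WT in every QQ embryo (log2 fold change 0.74 ± 0.33). Its margin was narrow, with 0.424 in WT replicate 1 and 0.444 in QQ replicate 1. The groups overlapped in PECAM1 (0.017), FLT1 (0.18) and ERG (0.041). The summed level of 4 neural tube markers was 32.4 to 39.8 in WT and 27.05 to 43.5 in QQ embryos. That of 6 somite and paraxial mesoderm markers was 146.9 to 159 in WT and 144.7 to 153 in QQ embryos. TWIST1 made up most of this sum and lay below WT in every QQ embryo (95.0 to 105 against 91.4 to 93.1). Its log2 fold change was -0.21 ± 0.11. Of the 6 genes, 4 had a log2 fold change above 0 and 2 below. ISL1, the single gene of the neuron list matched to a row, stood at 10.6 to 12.6 in WT and 11.7 to 14.4 in QQ embryos. The widest ranges were those of 7 erythroid markers and of 4 endoderm and yolk sac markers. The erythroid sum was 450.2 to 1485 in WT and 59.1 to 725 in QQ embryos. HBZ made up most of it, with 439.6 to 1464 and 54.4 to 710. All 6 tested erythroid genes lay lower in QQ embryos (median log2 fold change -0.72, 0 called). The endoderm and yolk sac sum was 23.9 to 207 in WT and 29.8 to 449 in QQ embryos. Within it AFP ran from 7.13 to 132 and from 13.2 to 320. The part of these cell types in the results was not tested.

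No guidance gene passed the edgeR test. More guidance rows had higher than lower values in QQ embryos, and WT replicate 3 was the lowest library for most of them. Of the 97 rows, 74 rows of 57 genes had enough reads to be tested. With edgeR's quasi-likelihood test and Benjamini-Hochberg adjustment over all 13957 tested rows, 0 guidance rows were called at an adjusted p of 0.05, and 0.0% of all tested rows were. The smallest adjusted p was 0.233, both among the guidance rows and over all rows. At an unadjusted p under 0.05 there were 12 guidance rows of 11 genes, 16.2% of those tested, below the 20.3% of all tested rows. Of these 12 rows, 10 had higher values in QQ embryos (11.0% of all tested rows did) and 2 lower (9.29% of all tested rows). On the same counts DESeq2 called 1 guidance row, the shorter row of ROBO1 (DESeq2 adjusted p = 0.0377), where it called 0.795% of all tested rows (0.738% of all tested rows as higher in QQ embryos). Limma on log2(RPKM + 0.5), without weights, called 0 guidance rows and 0.0% of all tested rows. Choices made after seeing the data called more: limma with array weights, which gave WT replicate 3 a weight of 0.216 and WT replicate 1 a weight of 5.61, called 10 guidance rows higher (7.73% of all tested rows), and DESeq2 without WT replicate 2 called 8 higher (4.87% of all tested rows). Both called EFNB2, EPHA7, SEMA5A, PLXNB1 and the shorter rows of SEMA3D, SLIT2 and ROBO1.

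Higher values in QQ embryos were found in 51 of the 74 tested rows, 68.9%, where 49.7% of all tested rows had them. The median log2 fold change (QQ minus WT) of the guidance rows was 0.19, against -0.0027 over all tested rows. The rule for testing favours rows that are high in some library, so these counts describe the tested rows only; with no filter, 64 of all 97 guidance rows lay higher in QQ embryos and 33 lower. WT replicate 3 had the lowest RPKM of the 6 libraries in 46 of the 74 rows (62.2%), and in 41.4% of all tested rows. It lay under 60% of the mean of the other WT libraries in 25 guidance rows (33.8%), against 15.9% of all tested rows. Without this library 50 of the same 74 rows lay higher and 24 lower, with a median of 0.12 (49.3% of all tested rows lay higher). At an unadjusted p under 0.05 there were then 11 guidance rows of 79 tested, where 13.7% of all rows passed. WT and QQ values were fully apart in 21 of the 74 rows, 28.4%, a share near the 27.9% of all tested rows. QQ lay above WT in 19 of these rows (18.8% of all tested rows did), each with its lowest value in WT replicate 3, and below in 2 rows (9.07% of all tested rows).

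**Figure D1:**
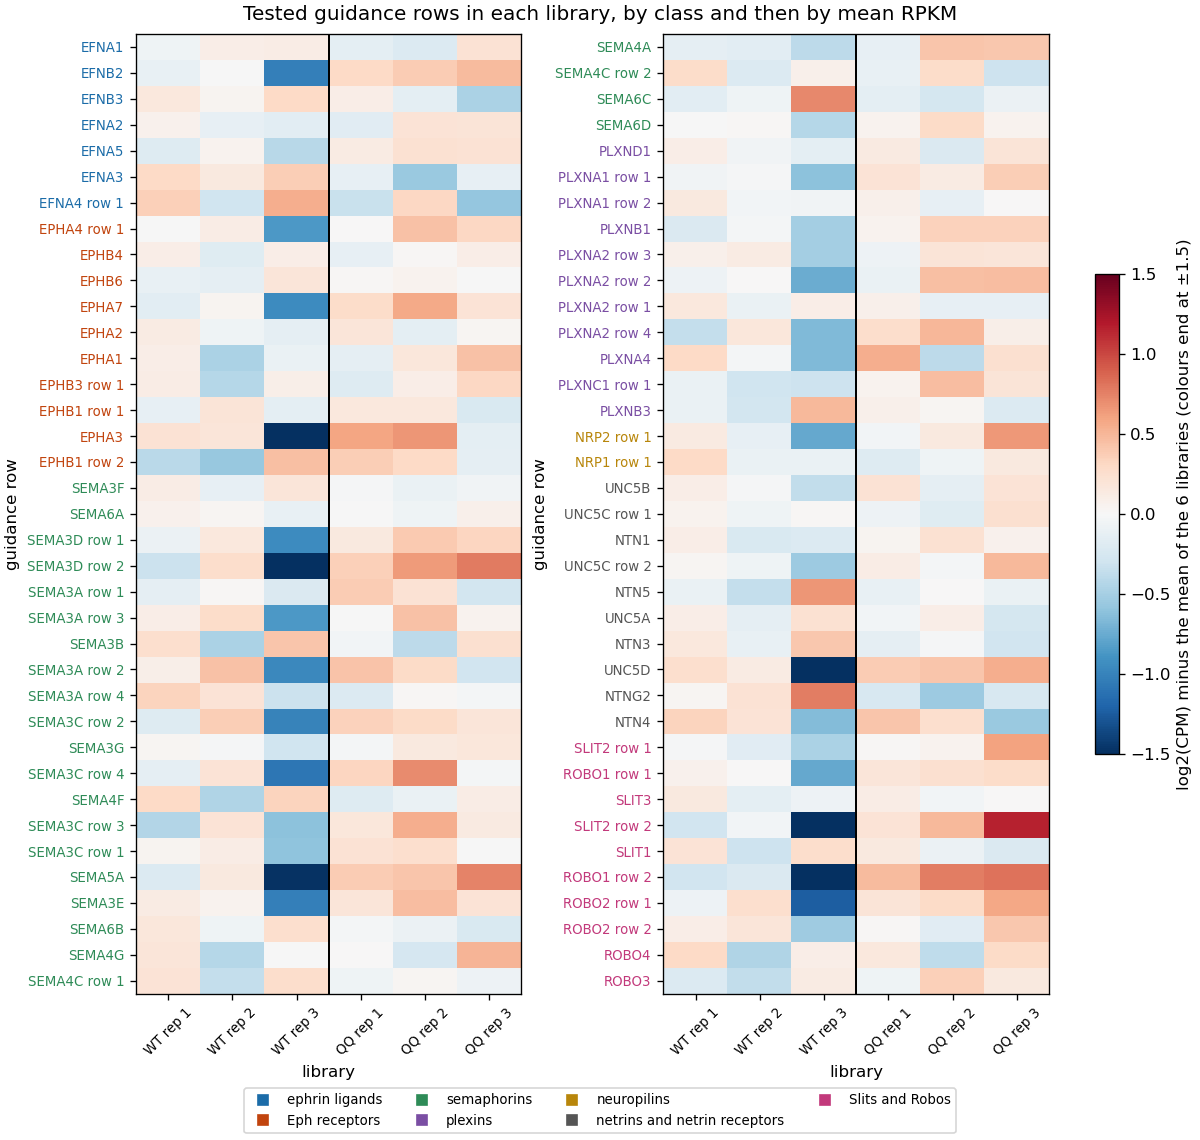
Each line is 1 of the 74 tested guidance rows and each column a library; the colour is the log2 of CPM (counts scaled to library size, here with TMM factors) minus the mean of the 6 libraries, with names coloured by class and rows ordered by mean RPKM within a class. WT replicate 3 is the blue column in many lines, such as EFNB2, EPHA3, SEMA5A, UNC5D and the second row of ROBO1, while EFNA1, EPHB4, SEMA3F and SLIT3 are pale in every library.

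Library by library, the guidance rows of WT replicate 3 had a median log2 deviation of -0.26 from the mean of the 6 libraries. The other WT libraries had medians of 0.069 and -0.037, and QQ replicates 1 to 3 of 0.058, 0.15 and 0.15. Over all tested rows the medians ran from 0.0012 to 0.018, all near 0. The spread between embryos, as the SD of log2(RPKM + 0.5), was larger in WT than in QQ embryos in 55 of 74 guidance rows (74.3%), and in 62.9% of all tested rows. Reads covered a median of 80.3%, 81.0% and 80.6% of the length of the tested guidance rows in the WT and 82.3%, 83.1% and 81.5% in the QQ libraries. Over all tested rows the lowest of the 6 medians was that of WT replicate 3, 80.2%, against 82.1% to 83.6%. Across rows, the ratio of WT replicate 3 to the other WT libraries had a Spearman correlation of 0.26 with transcript length in the 74 guidance rows and -0.095 in all tested rows.

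**Figure D2:**
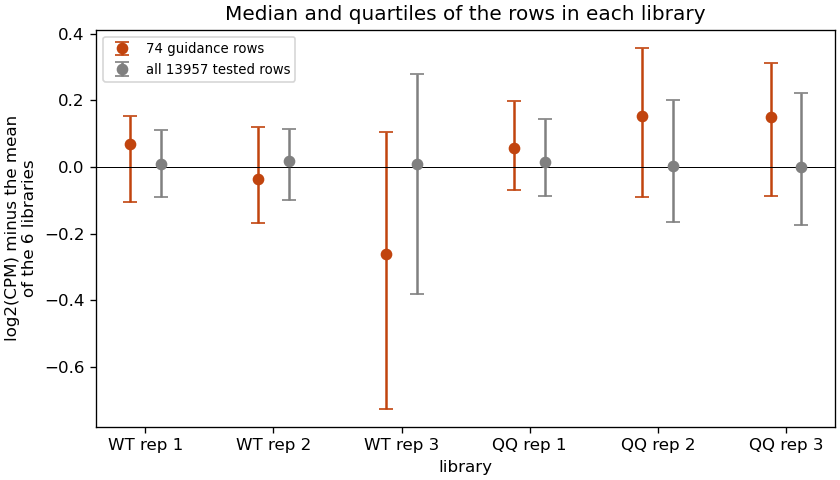
Points are medians and bars the quartiles, over 74 guidance rows (red) and all 13957 tested rows (grey), of log2(CPM) minus the mean of the 6 libraries, for each library. The guidance median is -0.26 in WT replicate 3 and 0.15 in QQ replicates 2 and 3, while every grey median lies within 0.02 of 0.

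Levels spanned a wide range. The 10 rows with the highest mean held 43.6% of the summed RPKM of all guidance rows; 32 rows had a mean above 10 RPKM and 30 a mean under 1. NRP2 and EFNA1 were the 2 most abundant rows. NRP2, a co-receptor of SEMA3F and a coreceptor for vascular growth factors, had 60.7 ± 19.6 in WT and 90.8 ± 24.98 in QQ embryos. EFNA1, a membrane-anchored A ephrin, had 82.96 ± 4.504 and 84.01 ± 14.9. These means did not separate beyond their SDs, and the order of NRP2 and EFNA1 changed between the 2 groups. At the other end, 23 guidance rows had 1 to 59 reads over all libraries and were not tested. For 6 genes no row could be tested: the Eph receptors EPHA5 and EPHA8, the netrin NTNG1, the plexin PLXNA3, and the semaphorins SEMA4D and SEMA7A. EPHA8 had 1 read in all, in WT replicate 2.

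Among the ephrin ligands, 3 of 7 tested rows had higher and 4 lower values in QQ embryos. Their median log2 fold change was -0.081, which became 0.0052 with limma on log2(RPKM + 0.5) and 0.096 with array weights, both without TMM factors. EFNB2 (ENSSSCT00000010453, 1696 bp), the transmembrane ephrin-B2 of arteries and of somite boundaries, stood at 28.6, 30.6 and 14.3 in WT replicates 1 to 3 and at 38.3, 43.4 and 45.8 in QQ replicates 1 to 3. Every QQ embryo lay above every WT embryo, and WT replicate 3 was far below the other WT embryos. Its log2 fold change was 0.71 ± 0.23 (SE), with an edgeR adjusted p of 0.233. Without WT replicate 3 it was 0.45 with edgeR, and DESeq2 then called EFNB2 higher in QQ embryos (DESeq2 log2 fold change 0.45, adjusted p = 0.0400, against 0.0934 with all libraries; 1.07% of all rows were called higher). Over 20 alternative settings its log2 fold change ran from 0.45 to 0.89 and its adjusted p from 0.0195 to 0.669.

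The other B ephrin with a row, EFNB3, a neural ligand that keeps corticospinal axons from crossing the midline, went the other way. It stood at 30.7, 28.3 and 32.1 in WT and 29.6, 26.8 and 21.04 in QQ embryos. WT and QQ embryos overlapped, and QQ replicate 3 was the lowest; the log2 fold change was -0.33 ± 0.15. For EFNA3, an A ephrin of the nervous system, 60, 55 and 64 reads were counted in WT against 48, 35 and 46 in QQ libraries, or 6.44 ± 0.402 and 4.7003 ± 0.725 RPKM. Its QQ embryos lay below its WT embryos without overlap (log2 fold change -0.55 ± 0.22, edgeR adjusted p = 0.233). EFNA1 had values of 74.1 to 101 in every embryo and a log2 fold change of -0.08 ± 0.13. EFNA5, which guides retinal axons and was outside the rule for named genes, had 11.6 to 16.98 in WT and 17.98 to 20.8 in QQ embryos (0.37 ± 0.18).

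**Figure D3:**
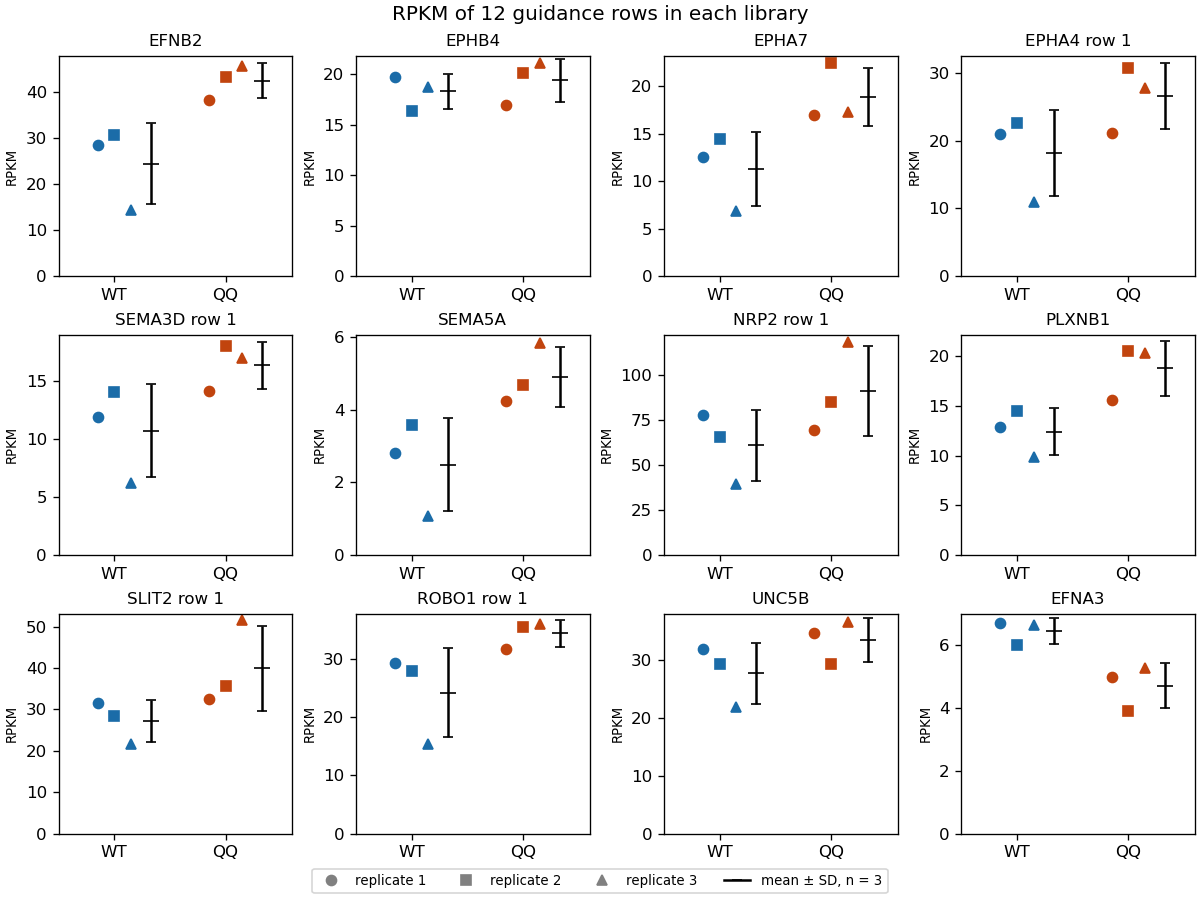
RPKM (axis from 0) of 12 guidance rows in each of the 3 WT (blue) and 3 QQ (red) embryos, with the marker shape giving the replicate number and bars the mean ± SD. In 10 of the panels, from EFNB2 to UNC5B, the triangle of WT replicate 3 is the lowest point; EPHB4 overlaps between the groups, and in EFNA3 all QQ points lie below all WT points.

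Of 10 tested Eph receptor rows, 9 lay higher in QQ embryos, the median was 0.23, and 1 had an unadjusted p under 0.05. All 5 tested EphA rows lay higher (median 0.46, and 4 of the 5 without WT replicate 3, median 0.22), and 4 of 5 EphB rows (median 0.061, and 0.14 without that library). EPHA4, which binds both A and B ephrins and works at somite and hindbrain boundaries, stood at 20.96, 22.6 and 10.9 in WT and 21.2, 30.7 and 27.8 in QQ embryos. WT replicate 3 was about as far below its group as in EFNB2, while QQ replicate 1 lay at the level of WT replicates 1 and 2. The log2 fold change was 0.46 ± 0.23, and 0.21 without WT replicate 3. EPHA7, a repellent receptor of the neural tube that also helps neural folds to close, stood at 12.6, 14.4 and 6.89 in WT and at 16.99, 22.4 and 17.2 in QQ embryos. Its groups did not overlap, with a log2 fold change of 0.65 ± 0.23 (edgeR adjusted p = 0.233) that became 0.41 without WT replicate 3.

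EPHB4, the venous receptor of ephrin-B2, was steady, with 19.8, 16.3 and 18.8 in WT and 16.97, 20.2 and 21.1 in QQ embryos. The groups overlapped and the log2 fold change was -0.02 ± 0.12, of a sign that varied between settings. EPHB6, whose kinase domain is inactive, had 15.1 to 17.9 in WT and 16.9 to 18.6 in QQ embryos (0.03 ± 0.13, also of no settled sign). A ratio of 2 RPKM values in the same library does not depend on the scaling of that library. The ratio of EFNB2 to EPHB4, a pair chosen after its values were seen, was 1.45, 1.87 and 0.761 in WT and 2.26, 2.15 and 2.17 in QQ embryos, without overlap. With EPHB4 steady, this ratio restates the separation of EFNB2. In every other ligand and receptor pair computed the groups overlapped. EFNA1 to EPHA2 was 5.75 to 7.76 in WT and 5.23 to 7.47 in QQ embryos, and SEMA3E to PLXND1 0.0652 to 0.131 and 0.123 to 0.195. For EFNB2 to EPHB4 the 3 QQ ratios lay close together, and the WT ratios were spread widely.

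For the semaphorins, 16 of 24 tested rows lay higher in QQ embryos and 8 lower, and the median was 0.23. The 14 rows of the secreted class 3 had a median of 0.27, with 11 higher, and WT replicate 3 was their lowest library in 12 of 14. The 10 tested rows of classes 4 to 7, nearly all of them membrane proteins, had a median of -0.041, with 5 higher and 5 lower. Without WT replicate 3 the medians were 0.12 and -0.010, and 0.085 over all 24 rows. The difference between these sets was not tested. SEMA3D, which guides axons of the hindbrain and migrating neural crest and endothelial cells, had 2 tested rows. The longer, of 3871 bp, stood at 11.9, 14.1 and 6.24 in WT and 14.2, 18.1 and 16.99 in QQ embryos. In the shorter, of 674 bp, the values were 7.48, 11.3 and 2.54 in WT and 12.1, 15.9 and 17.3 in QQ embryos. In both rows QQ lay above WT in RPKM without overlap, and WT replicate 3 was far below the rest. The margin in the longer row was narrow, with 14.12 in WT replicate 2 and 14.16 in QQ replicate 1. On TMM-scaled log2 CPM these libraries changed places, with deviations of 0.156 and 0.152 from the mean of all libraries. The log2 fold changes were 0.52 ± 0.24 and 1.00 ± 0.40, and 0.26 and 0.60 without WT replicate 3.

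SEMA5A, a transmembrane semaphorin that can attract or repel, was counted with 117, 153 and 48 reads in WT against 190, 196 and 237 in QQ libraries. The levels were 2.48 ± 1.28 and 4.91 ± 0.824 RPKM, with separate groups and a log2 fold change of 0.90 ± 0.34 (edgeR adjusted p = 0.233) that was 0.54 without WT replicate 3. The groups overlapped in the 2 most abundant semaphorins. SEMA3F, the NRP2 ligand that steers neural crest, had 18.7 to 22.2 in WT and 20.4 to 20.99 in QQ embryos, a log2 fold change of -0.12 ± 0.11. SEMA6A, a transmembrane ligand of plexin-A2 and plexin-A4, had 15.5 to 18.6 and 17.7 to 19.9 (0.01 ± 0.10, of no settled sign). Values of SEMA3E, the ligand of plexin-D1 on endothelium, were 3.59, 3.399 and 1.51 in WT and 3.74, 4.89 and 4.05 in QQ embryos (0.49 ± 0.28, and 0.20 without WT replicate 3), a gene outside the rule for named genes. The ratio of SEMA3F to NRP2 was 0.285, 0.287 and 0.561 in WT and 0.294, 0.244 and 0.178 in QQ embryos, so WT replicate 3 held the highest value and the remaining embryos overlapped.

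Plexins, the signalling receptors of semaphorins, lay higher in QQ embryos in 8 of 11 tested rows. The median was 0.27, or 0.17 without WT replicate 3 and 0.51 when WT replicate 1 was left out. In 3 rows (PLXNA1, PLXNB1 and PLXNC1) the unadjusted edgeR p was under 0.05, 27.3% of those tested against 20.3% of all tested rows. PLXND1, the endothelial plexin, and PLXNA1, a partner of neuropilins for class 3 semaphorins, were the most abundant. PLXND1 stood at 28.9, 25.9 and 23.2 in WT and 29.7, 25.1 and 32.96 in QQ embryos. Its groups overlapped, and the log2 fold change was 0.08 ± 0.13, turning to -0.14 with the length trend removed. PLXNB1, the receptor of SEMA4D, stood at 12.8, 14.5 and 9.89 in WT and 15.6, 20.5 and 20.3 in QQ embryos. Its groups were separate, with a log2 fold change of 0.50 ± 0.17 (edgeR adjusted p = 0.233), and 0.38 without WT replicate 3.

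Both neuropilins had 1 testable row. NRP2 stood at 77.8, 65.2 and 39.3 in WT and 69.3, 84.8 and 118 in QQ embryos. WT replicate 3 was the lowest and QQ replicate 3 the highest, and the groups overlapped (log2 fold change 0.49 ± 0.24, and 0.27 without WT replicate 3). NRP1, the co-receptor for SEMA3A and for vascular endothelial growth factor, stood at 17.5, 13.3 and 12.6 in WT and 12.5, 14.8 and 16.9 in QQ embryos, fully overlapping (-0.07 ± 0.14, of no settled sign). The other 6 rows of NRP1 held 1 to 44 reads in all.

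Netrins and their receptors were split, with 5 of 10 tested rows higher and 5 lower and a median of 0.040, which became -0.035 with the length trend removed. UNC5B, a netrin receptor of endothelial tip cells, was the most abundant, at 31.9, 29.2 and 21.9 in WT and 34.6, 29.2 and 36.5 in QQ embryos. Here the groups overlapped and the log2 fold change was 0.19 ± 0.15, 0.060 without WT replicate 3 and -0.011 with the length trend removed. NTN1, the attractant of the floor plate, stood at 13.5, 10.7 and 10.3 in WT and 12.9, 15.9 and 13.997 in QQ embryos (0.22 ± 0.17). The ratio of NTN1 to UNC5B overlapped between the groups, at 0.420 ± 0.0522 in WT and 0.434 ± 0.0952 in QQ embryos. NTNG2, a membrane-anchored netrin-G of neurons, had lower values in QQ embryos: 34, 40 and 59 reads in WT against 30, 24 and 29 in QQ libraries. These groups did not overlap, and WT replicate 3 held the highest value (log2 fold change -0.75 ± 0.28, edgeR adjusted p = 0.233, and -0.50 without WT replicate 3).

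Slits and Robos had a median of 0.37, with 9 of 10 tested rows higher in QQ embryos. The unadjusted edgeR p was under 0.05 in 3 of them (30.0%), against 20.3% of all tested rows. All 6 Robo rows and 3 of 4 Slit rows lay higher; without WT replicate 3 the median was 0.23 and 8 of 10 rows lay higher. SLIT2, a secreted midline repellent that also acts in kidney and vessels, stood at 31.6, 28.4 and 21.8 in WT and 32.5, 35.7 and 51.6 in QQ embryos in its row of 3805 bp. Every QQ embryo lay above every WT embryo, QQ replicate 1 by a narrow margin, and the log2 fold change was 0.46 ± 0.18 (edgeR adjusted p = 0.233), or 0.34 without WT replicate 3. ROBO1, its main receptor, stood at 29.3, 27.96 and 15.4 in WT and 31.8, 35.4 and 36.1 in QQ embryos in its row of 4821 bp (0.42 ± 0.19, and 0.19 without WT replicate 3). The ratio of SLIT2 to ROBO1 was 1.08, 1.02 and 1.41 in WT and 1.02, 1.01 and 1.43 in QQ embryos, so ligand and receptor kept much the same balance in both groups. The third Slit, SLIT3, had 21.9 to 27.03 in WT and 25.5 to 26.03 in QQ embryos, a log2 fold change of 0.05 ± 0.11 that turned negative in some settings. SLIT1, outside the rule for named genes, had 11.5 ± 2.21 and 11.2 ± 1.06.

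**Figure D4:**
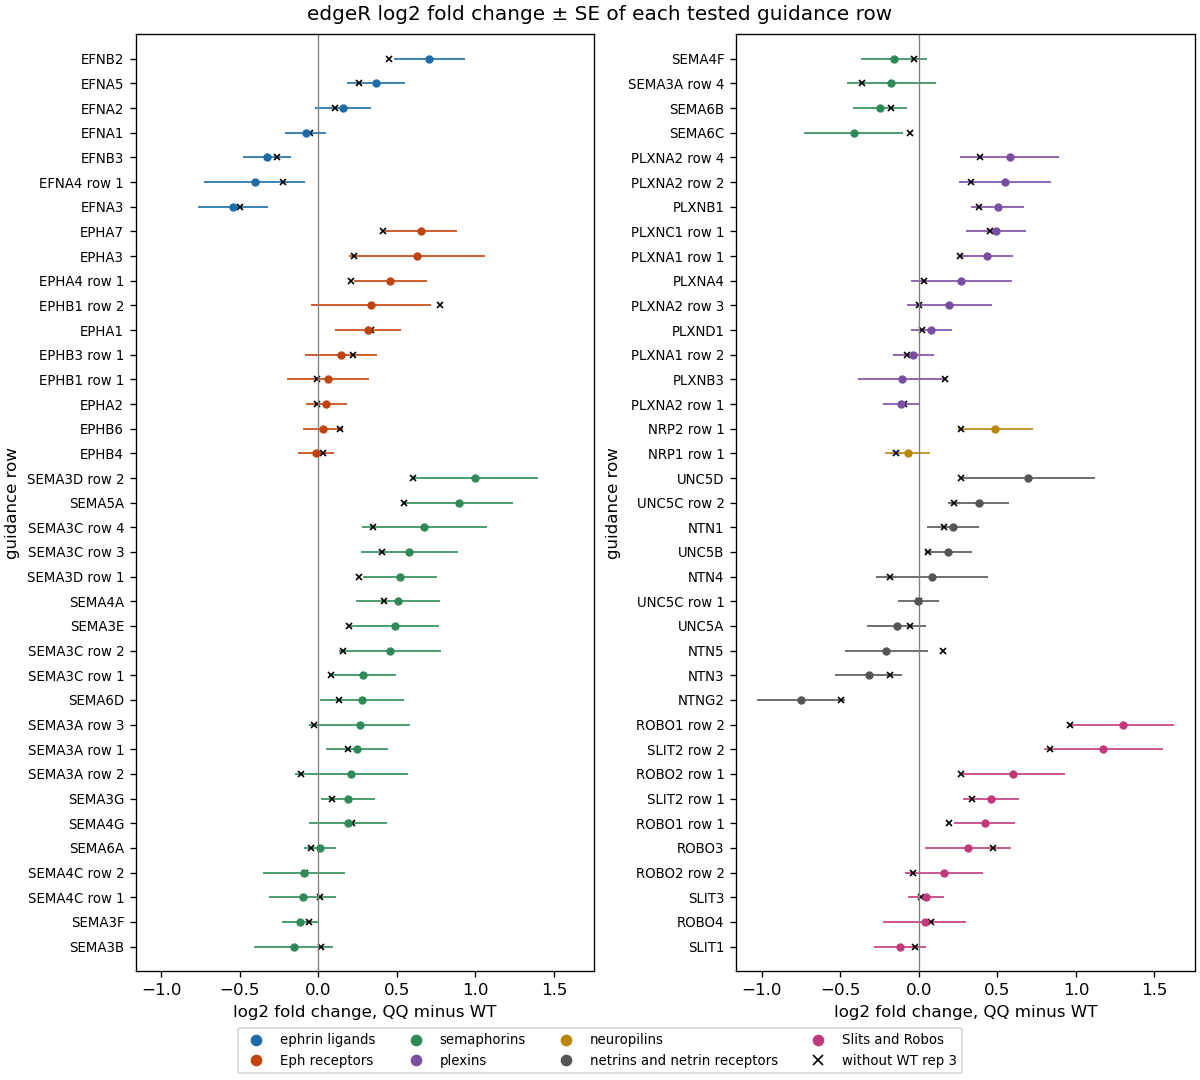
Log2 fold change (QQ minus WT) of each tested guidance row with all 6 libraries (coloured points, bars ± SE) and without WT replicate 3 (black crosses), grouped by class. Most points lie right of 0, 60 of the 74 crosses (81.1%) lie nearer to 0 than their points, as 73.7% of all tested rows do, and no row passed the edgeR test.

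Rows of the same gene did not always tell the same story. Of 11 genes with several tested rows, 7 had the same sign in all of them. The second row of ROBO1, of 646 bp (ENSSSCT00000013134), was counted with 50, 54 and 20 reads in WT against 93, 115 and 114 in QQ libraries, and had a log2 fold change of 1.30 ± 0.33, where the longer row had 0.42. It is the row that DESeq2 called higher; edgeR gave it an adjusted p of 0.233. The second row of SLIT2, of 415 bp, was counted with 71, 87 and 30 reads in WT against 109, 133 and 204 in QQ libraries (1.18 ± 0.38, where the longer row had 0.46). In both short rows WT replicate 3 was lowest and the groups did not overlap. For PLXNA1 the 2483 bp row stood at 22.98, 23.5 and 14.6 in WT and 27.4, 27.9 and 32.7 in QQ embryos (0.44 ± 0.17, and 0.26 without WT replicate 3), without overlap. Its 1271 bp row had 21.8 to 26.5 in WT and 23.6 to 25.5 in QQ embryos (-0.04 ± 0.13, of no settled sign). UNC5C was alike: its 2963 bp row had a log2 fold change of -0.0032 ± 0.13, with no settled sign, and its 2337 bp row of 0.38 ± 0.20, or 0.22 without WT replicate 3. The 10094 bp row of PLXNA2 held 1209 to 1441 reads and had -0.11 ± 0.11, while its 3 short rows, of 189 to 268 bp and 12 to 54 reads, had 0.19 to 0.58.

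With the reads of all rows of a guidance gene summed, 57 genes were tested, 38 of them higher in QQ embryos, with a median of 0.16 and 0 called. The summed log2 fold changes were 0.45 ± 0.20 for ROBO1, 0.50 ± 0.19 for SLIT2, 0.58 ± 0.25 for SEMA3D and 0.28 ± 0.13 for PLXNA1. For ROBO1, SLIT2 and SEMA3D the sum lay near the value of the longer row, and for PLXNA1 between its 2 rows. The identity of the longest SEMA3A row, of 1613 bp, is uncertain: the table describes it as semaphorin-3A-like, and its pig protein accession is listed as SEMA3D in the RefSeq table of Sscrofa11.1.

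**Figure D5:**
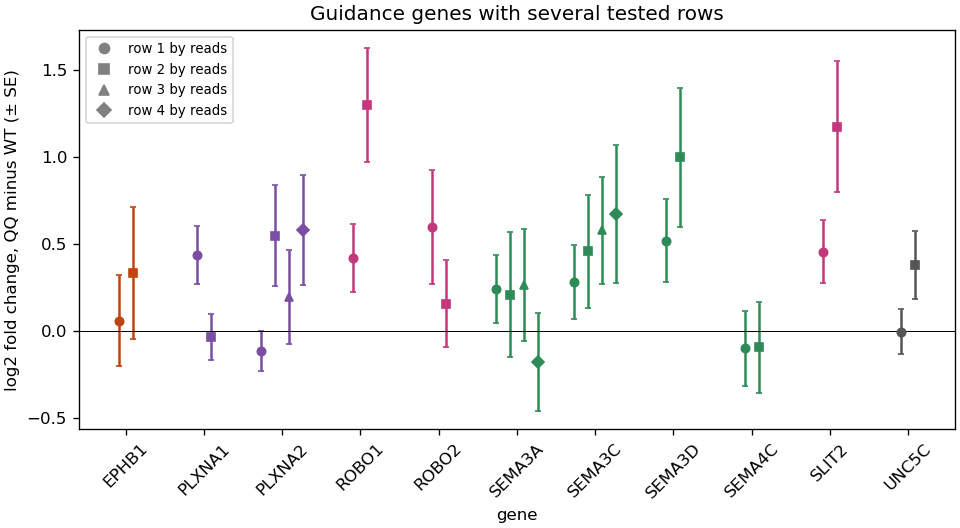
Log2 fold change (QQ minus WT, ± SE) of each tested row of the 11 guidance genes with several tested rows; the marker shape gives the rank of the row by reads within its gene. The shorter rows of ROBO1 and SLIT2 lie at 1.30 and 1.18, above their longer rows at 0.42 and 0.46, and rows of PLXNA1, PLXNA2, SEMA3A and UNC5C lie on both sides of 0.

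Intracellular partners of these receptors and other guidance genes were taken from a list of 47 genes. By symbol, 26 of these were matched to a row, and 25 were tested. Of the 25, 11 lay higher in QQ embryos and 14 lower, with a median of -0.0061. With all libraries, edgeR, DESeq2 and limma without weights called 0 of them. Some were called with array weights or with a library left out, choices made after seeing the data that are given below. In 5 of the 25 the unadjusted edgeR p was under 0.05, a share near the 20.3% of all tested rows. SRGAP1, the Slit-Robo GTPase-activating protein that works below Robo receptors, stood at 5.58, 5.46 and 2.79 in WT and 6.86, 8.75 and 13.1 in QQ embryos. ARHGEF12, an intracellular partner of B plexins such as plexin-B1, stood at 13.1, 13.8 and 7.97 in WT and 15.95, 18.9 and 19.9 in QQ embryos. In both genes the groups did not overlap and WT replicate 3 was lowest, with log2 fold changes of 0.96 ± 0.29 and 0.56 ± 0.18 (edgeR adjusted p = 0.233 each). Without WT replicate 3 these were 0.71 and 0.36, and ARHGEF12 had 0.29 with the length trend removed. The remaining genes with an unadjusted p under 0.05 were named after their values were seen. ADAM10, the protease that cuts ephrins from the cell surface, had 0.89 ± 0.35 and PAK2, a kinase below Rac and Cdc42, 0.76 ± 0.31, or 0.54 and 0.42 without WT replicate 3. DPYSL2, also called CRMP2, a mediator of semaphorin signals in axons, had -0.24 ± 0.10. The netrin receptor neogenin (NEO1), which was also outside the rule for named genes, had means of 46.9 RPKM (WT) and 49.97 RPKM (QQ) and a log2 fold change of -0.0026 ± 0.10.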

How the data were processed

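RNA of 3 WT and 3 QQ embryos was made into TruSeq libraries, per the labels' protocols, and the submitters' processing notes name Sscrofa10.2 as the build. Aligner, counting program and strand use: not given in the sources used here. The authors deposited, per the file headers, the uniquely mapped read count, the RPKM and the percent of the transcript covered for each library and Ensembl transcript. A dash was read as a count of 0; each library's counts then added up to its header total, and RPKM followed from count, length and total (relative gap at most 1.29e-07). In reads, 3 counts are worth 0.222 to 0.246 CPM. Such limits cover counting error only.

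The main test was edgeR 4.0.16 (R 4.3.3) on counts of all rows, with TMM factors from 0.933 to 1.06, filterByExpr at its defaults (10 reads, 15 in total), quasi-likelihood fits, and Benjamini-Hochberg adjustment at 0.05. The SE is the log2 fold change divided by the square root of F. Symbols of members came from the deposited descriptions; for 45 of 46 rows with a pig RefSeq symbol both were the same. Other genes were named through the Sscrofa11.1 RefSeq table and represented by the row with the most reads. This gave a symbol to 9462 of 20523 rows, so a listed gene without a match may be among the remaining rows. Named genes were, per class, the 3 most abundant tested rows and the 2 with the smallest unadjusted p, and the 2 pathway genes with the smallest unadjusted p. Members, lists and tests were chosen with earlier results of these data known. Alternatives were median-ratio factors, no filter, a mean of at least 2 RPKM, DESeq2 1.42.0, limma 3.58.1 on log2(RPKM + 0.5), a replicate block and leaving out each library. A length trend (loess, span 0.4), array weights, summed rows, pair ratios and DESeq2 without each library were added after the data were seen. The default edgeR, DESeq2 and unweighted limma fits were first run on simulated data, and the other fits were not. No 2 replicates agreed within sampling noise (chi-square per degree of freedom at least 8.74).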

Additional observations from a re-analysis of the deposited data

How the results depend on the processing

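The median log2 fold change of the guidance rows stayed positive under every alternative run, from 0.135 to 0.286. Among settings that tested the same 74 rows, 44 (length trend removed) to 58 (limma) lay higher in QQ embryos. Removing the length trend moved the median of all rows to -0.071. Limma ran on RPKM without TMM factors, which were 0.933 to 0.986 in WT and 0.989 to 1.06 in QQ libraries. Leaving them out raises QQ relative to WT values in every row, so the 58 does not describe guidance rows alone. With no filter 64 of 97 rows lay higher, and 38 of 57 genes with their rows summed. The shares of all rows under limma and with no filter are not given here. Calls depended on the tool and on single libraries. DESeq2 called 103 rows higher and 8 lower in QQ embryos over all rows, and 1 guidance row higher. Limma with array weights called 1079 higher and 243 lower, with 10 guidance rows and 2 pathway genes higher. Leaving out each library in turn, with edgeR or DESeq2, gave 0 to 694 rows called higher and 0 to 154 lower, 0 to 8 guidance rows and 0 to 3 pathway genes. The highest of these counts came from DESeq2 without WT replicate 2; edgeR called 0 guidance rows without any library, and 0 to 2 rows higher over all rows. The cause was not tested. Same-numbered WT and QQ libraries did not deviate together (r = -0.19, 0.21 and -0.056, and the second number alone correlated best with its own), so the numbers were not taken to pair embryos; with the replicate block edgeR called 0 guidance rows, with 51 higher and a median of 0.20.

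Over 31 named rows and genes, 547 of 621 alternative values kept their direction and side of the threshold, 22 passed it and 52 changed sign. UNC5C row 1 was 0.0044 with median-ratio factors, 0.0049 with the 2 RPKM filter, 0.0044 with DESeq2, 0.081 with limma and 0.044 with array weights. With limma, run without TMM factors, EPHB4 was 0.081, EFNA1 0.0052, NRP1 0.028 and PLXNA1 row 2 0.060. With array weights on the same RPKM scale EPHB4 was 0.034, EFNA1 0.096 and SLIT3 -0.013. With the length trend removed EPHB6 was -0.0089, SLIT3 -0.064, UNC5B -0.011, PLXND1 -0.14 and SEMA6A -0.18. Leaving out each library gave -0.14 to 0.090 for UNC5C row 1, -0.10 to 0.055 for EPHB4, -0.029 to 0.14 for EPHB6, -0.17 to 0.076 for NRP1, -0.084 to 0.039 for PLXNA1 row 2, -0.0023 to 0.20 for PLXND1, -0.045 to 0.052 for SEMA6A, -0.014 to 0.14 for SLIT3 and -0.22 to 0.0033 for EFNA1. Depth limits the rarest genes: the 23 guidance rows left untested held at most 59 reads in all libraries together.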
